A study of Rattus norvegicus with 6 samples.

Results

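The genes described here act in the G2 phase and mitosis of the cell cycle. The set lists 10 of them: the cyclin-dependent kinase Cdk1 and its cyclins Ccnb1 and Ccna2, the spindle proteins Nusap1, Tpx2 and Prc1, the chromosomal passenger proteins Aurkb and Birc5, and the topoisomerase Top2a, which untangles DNA, and the proliferation marker Mki67. The set was selected on the contrast of phenolphthalein with vehicle, measured as log2 signal on these same arrays. The differences between the groups are therefore given as a description, with no test of the set. Through RefSeq accessions, 8 of the 10 genes were matched to 12 probes, and all 8 passed the filter on dim signals, among 12269 named genes and 34417 items (genes and unnamed probes) tested in all. No probe was matched by accession to Top2a or Mki67, which does not show that the array lacks them. Their levels were not analysed here.

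The samples were renal cortex, the outer zone of the kidney, taken from 6 male Sprague-Dawley rats bought at 5 weeks of age. A vehicle group of 3 rats was given corn oil for 4 weeks. A second group of 3 rats was given phenolphthalein, formerly a laxative, at 1000 mg/kg/day over the same 4 weeks. Each rat gave 1 single-colour Agilent array, and the labels give nothing that ties a rat of one group to a rat of the other.

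G2/M genes are made in bursts: their transcripts build up after DNA replication, and most of their proteins are destroyed as mitosis ends. Cdk1 bound to cyclin A or cyclin B drives entry into mitosis, the spindle proteins build and bundle microtubules, and the passenger complex around Aurora B corrects the attachment of chromosomes to the spindle and sets the place of division. In resting cells the DREAM complex keeps these genes silent through a promoter element called the CHR, often with CCAAT boxes bound by NF-Y nearby, and the MuvB core with B-Myb and FoxM1 switches them on in G2. Most tubule cells of the adult kidney are quiescent, so that these transcripts come from a small share of the cells.

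Promoter sequences were searched for these elements. RefSeq promoter windows of the GRCr8 build, from 250 bases before to 50 bases after the start of the gene, were found for 7 of the 10 genes. No window was found for Ccna2, Aurkb and Tpx2. The windows were searched on both strands for the CHR, spelled TTTGAA or TTCGAA, and for CCAAT. Of the 7 windows, 6 held a CHR spelling and all 7 held CCAAT, whereas 19.7% of all 33469 windows of 300 bases held a CHR spelling, 37.5% held CCAAT and 7.95% held both. The window without a CHR spelling was that of Ccnb1, which had 2 CCAAT matches. TTCGAA reads the same on both strands and was counted once per place, and a CHR spelling and CCAAT overlapped in the window of Mki67 alone. A match is a description of the letters, not of a bound site. The 4 windows that follow are those of the 4 members with both a measured level and both motifs, printed to show where the elements lie. Nusap1 lies at chr3:127057045-127057344 (plus strand), Cdk1 at chr20:19265043-19265342 (plus strand), Birc5 at chr10:103571896-103572195 (plus strand) and Prc1 at chr1:143659231-143659530 (plus strand). The sequences run 5′ to 3′ on the gene's strand, and capitals mark a CHR spelling or CCAAT on either strand.
Nusap1: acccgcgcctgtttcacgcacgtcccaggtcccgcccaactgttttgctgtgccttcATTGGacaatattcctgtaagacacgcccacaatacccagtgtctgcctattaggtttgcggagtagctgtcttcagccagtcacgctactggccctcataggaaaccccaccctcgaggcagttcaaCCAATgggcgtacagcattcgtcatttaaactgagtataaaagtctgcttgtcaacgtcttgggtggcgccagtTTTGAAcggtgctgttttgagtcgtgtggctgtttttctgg
Cdk1: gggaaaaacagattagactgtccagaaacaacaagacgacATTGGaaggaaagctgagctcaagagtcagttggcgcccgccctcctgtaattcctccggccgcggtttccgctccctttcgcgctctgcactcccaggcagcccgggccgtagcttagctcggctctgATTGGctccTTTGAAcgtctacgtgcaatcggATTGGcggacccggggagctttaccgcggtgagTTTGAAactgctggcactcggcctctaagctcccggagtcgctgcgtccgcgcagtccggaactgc
Birc5: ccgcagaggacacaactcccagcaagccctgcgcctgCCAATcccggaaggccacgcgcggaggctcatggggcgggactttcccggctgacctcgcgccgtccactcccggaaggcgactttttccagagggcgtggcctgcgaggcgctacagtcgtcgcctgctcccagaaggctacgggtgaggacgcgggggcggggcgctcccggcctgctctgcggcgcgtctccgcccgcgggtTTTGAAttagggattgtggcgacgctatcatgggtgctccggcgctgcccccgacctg
Prc1: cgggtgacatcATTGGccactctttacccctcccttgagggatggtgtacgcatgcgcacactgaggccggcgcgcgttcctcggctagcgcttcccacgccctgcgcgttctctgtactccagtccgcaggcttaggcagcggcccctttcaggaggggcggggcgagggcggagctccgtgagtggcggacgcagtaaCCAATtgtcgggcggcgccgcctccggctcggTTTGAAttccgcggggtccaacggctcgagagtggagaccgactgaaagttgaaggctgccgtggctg

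Positions are those of the first base of a match, with 0 as the first base of the gene. The CHR spelling of Birc5 began at -8 and that of Prc1 at -18. Cdk1 had 2 CHR spellings, at positions -72 and -16, and CCAAT on the opposite strand at -210, -81 and -49. The window of Nusap1 held its CHR spelling at 9, past the start, and CCAAT at -193 and -65. Birc5 had a single CCAAT, at -213, while Prc1 had one at -50 and another at -239.

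Levels are given as the log2 of the processed signal over the 75th percentile of that array's probes, so that 0 is the 75th percentile, and the level of one probe is not set against that of another. Of 61657 probes, 64.8% to 72.1% were well above background on an array and 0 were saturated, and the dimmest signal called well above background lay between -6.56 and -5.54. The 3 vehicle arrays shared a slide, phenolphthalein replicate 1 had a slide of its own, and phenolphthalein replicates 2 and 3 shared the third, so slide and group cannot be told apart. Replicate numbers follow the scanner files. In the deposited value table each column held the values of a different rat, always one from the matching treatment, so a rat's number within its treatment is uncertain but its treatment is not affected. The proximal tubule genes Slc34a1, Lrp2 and Cubn lay at 5.15 or higher on all 6 arrays. Of the 12 probes of the members, 11 were well above background on every array. In tissue RNA, fewer dividing cells and less of a transcript per dividing cell cannot be told apart.

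Cdk1, the kinase that drives cells into mitosis, was at 0.84, 1.01 and 1.61 in vehicle replicates 1, 2 and 3, and at 0.70, 1.01 and 0.61 in phenolphthalein replicates 1, 2 and 3. Vehicle replicate 3 was high, phenolphthalein replicate 2 lay level with vehicle replicate 2, and the groups overlapped. The means were 1.15 ± 0.41 and 0.77 ± 0.21 (SD, n = 3 each), a difference of -0.38 (limma SE 0.21), or 0.768 times the vehicle level.

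Ccnb1, which encodes cyclin B1, the partner of Cdk1 at mitotic entry, read -1.85, -1.72 and -1.25 in the vehicle rats. In the phenolphthalein rats it read -1.86, -1.76 and -2.00. As with Cdk1, vehicle replicate 3 stood above the other 5 arrays, which fell within a narrow band. The group difference was -0.27 (SE 0.17).

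Ccna2, which encodes cyclin A2, active in S phase and G2, was measured by 4 probes. On its brightest probe the vehicle values were -1.40, -1.21 and -0.63, and the phenolphthalein values were -1.54, -1.11 and -1.61. Phenolphthalein replicate 2 here exceeded vehicle replicates 1 and 2, and vehicle replicate 3 again was the highest. The differences between the group means were -0.34 (SE 0.22), -0.40 (SE 0.20), -0.44 (SE 0.17) and -0.45 (SE 0.34) from the brightest to the dimmest probe. The 4 probes thus gave close values, and vehicle replicate 3 was the highest of the 6 arrays on each. The dimmest was not well above background in vehicle replicate 2, and on the third the groups did not overlap.

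Nusap1, a nucleolar and spindle protein that bundles microtubules near chromosomes, was at -1.38, -1.11 and -0.86 in vehicle and at -1.81, -1.49 and -1.74 in phenolphthalein. All 3 phenolphthalein values lay below all 3 vehicle values; the nearest pair was vehicle replicate 1 and phenolphthalein replicate 2. The means were -1.12 ± 0.26 and -1.68 ± 0.17 (SD, n = 3 each), a difference of -0.56 (SE 0.16), or 0.678 times the vehicle level.

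Tpx2, which nucleates spindle microtubules and activates Aurora A, had vehicle values of -3.31, -3.39 and -2.97. Its phenolphthalein values were -3.74, -3.57 and -3.46. The groups did not overlap here either, with vehicle replicate 2 and phenolphthalein replicate 3 the nearest pair. The difference of the means was -0.36 (SE 0.16).

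Prc1, which cross-links antiparallel microtubules of the central spindle for cell division, had 2 probes. The brighter gave -1.53, -1.53 and -0.81 in vehicle and -1.71, -1.36 and -1.74 in phenolphthalein. The dimmer gave -4.56, -4.66 and -3.80 in vehicle and -4.60, -4.30 and -4.89 in phenolphthalein. On both probes vehicle replicate 3 stood apart at the top and phenolphthalein replicate 2 lay above vehicle replicates 1 and 2. The differences were -0.32 (SE 0.22) and -0.26 (SE 0.28).

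Aurkb, which encodes Aurora B, the kinase of the chromosomal passenger complex, read -4.87, -5.16 and -4.84 in vehicle and -5.40, -4.96 and -6.13 in phenolphthalein. Phenolphthalein replicate 3 was far below the other 5 arrays and near the dimmest signal called well above background on that array, -6.31. The mean difference was -0.54 (SE 0.33), with an SD of 0.18 in vehicle and 0.59 in phenolphthalein. The scanner software's own error for this probe was 12.4% to 22.2% of the signal, against at most 10.1% for Nusap1 and Ccnb1. With normexp background correction the difference was -0.095, and without phenolphthalein replicate 3 it was -0.22.

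Birc5, which encodes survivin, the subunit that brings the passenger complex to centromeres, differed from the others. It was at -0.70, -0.71 and -0.44 in vehicle and at -0.27, -0.60 and -1.04 in phenolphthalein. The phenolphthalein rats spanned the whole vehicle range, from the highest of the 6 values in replicate 1 to the lowest in replicate 3. The difference was -0.021 (SE 0.19), and it was 0.18 without phenolphthalein replicate 3 and -0.20 without phenolphthalein replicate 1.

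**Figure D1:**
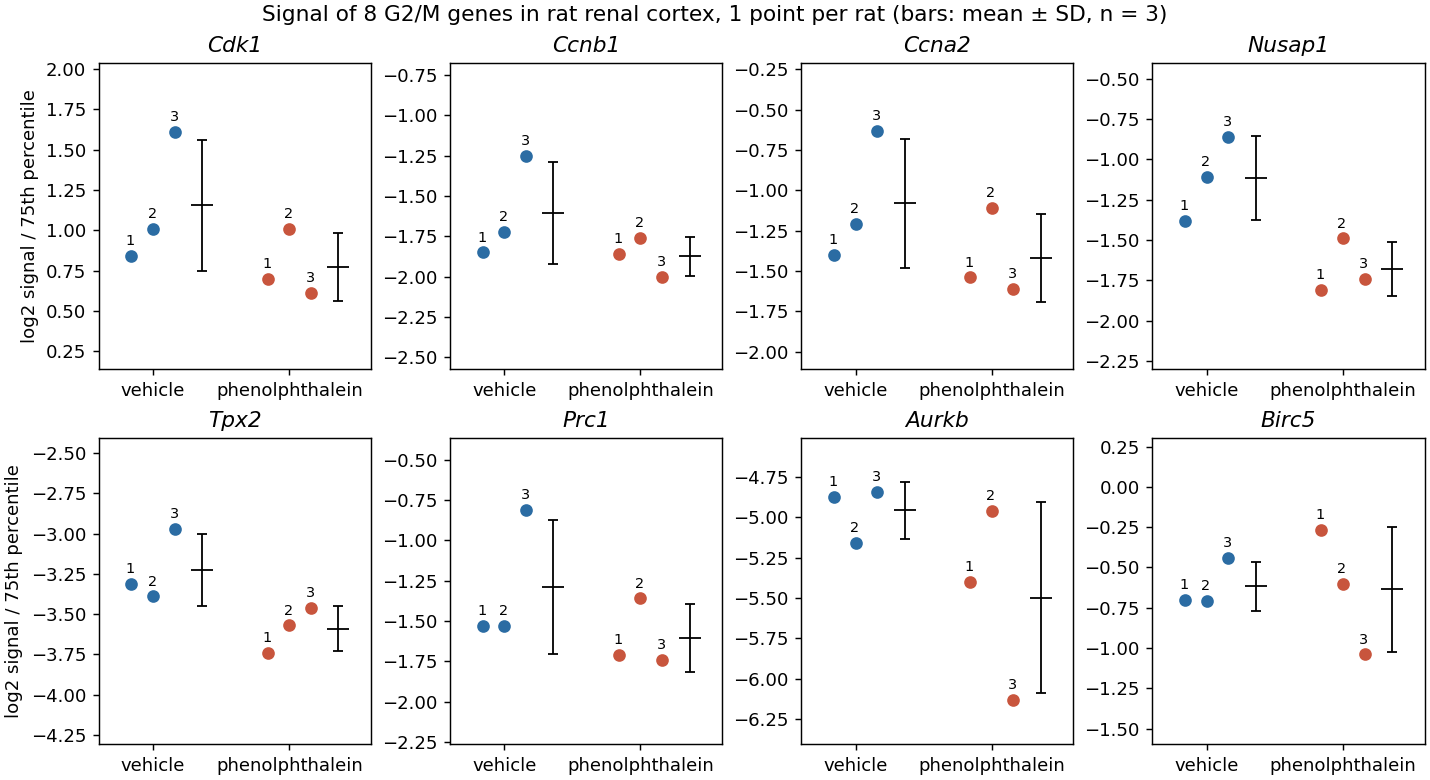
Level of the 8 measured G2/M genes, as log2 signal over the array's 75th percentile, with 1 point per rat numbered by replicate and bars for the mean ± SD (n = 3); the vertical axes have the same length in log2 units but different centres. Vehicle replicate 3 is the top vehicle point in all 8 panels, and the groups are apart only for Nusap1 and Tpx2.

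Averaged over the members, one pattern over the 6 rats stood out, though not every gene followed it. Each gene was centred on its own mean over the arrays, and the centred values were averaged over the 8 genes. The averages were -0.010, 0.039 and 0.49 in vehicle replicates 1, 2 and 3, and -0.19, 0.038 and -0.37 in phenolphthalein replicates 1, 2 and 3. On this average vehicle replicates 1 and 2 and phenolphthalein replicate 2 were level, vehicle replicate 3 was high, and phenolphthalein replicates 1 and 3 were low. By the median of the 8 genes, vehicle replicate 1 was at -0.077. Tpx2 departed from the pattern, with its highest phenolphthalein value in replicate 3 (-3.46). Aurkb was nearly as high in vehicle replicate 1 (-4.87) as in vehicle replicate 3 (-4.84). Of the 8 genes, 7 had their highest value in vehicle replicate 3, the exception being Birc5. The lowest value was in phenolphthalein replicate 3 for 6 genes and in phenolphthalein replicate 1 for Nusap1 and Tpx2. Phenolphthalein replicates 1 and 3 both lay below every vehicle value for 7 of the 8, again all but Birc5. Of the items with 6 values, 15.1% showed this. For Ccnb1 the margin was narrow, with -1.86 in phenolphthalein replicate 1 and -1.85 in vehicle replicate 1. The genes were selected on this contrast and the 2 replicates were picked from the genes' own values, so nothing is read from the count.

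The vehicle rats differed among themselves, and since their values are part of the contrast the genes were selected on, this is a description too. Vehicle replicate 3 exceeded the mean of vehicle replicates 1 and 2 by a median of 0.46 over the 8 genes, from 0.18 for Aurkb to 0.72 for Prc1. Over all items the median was 0.024. It was the highest vehicle array for 8 of 8 genes and for 12 of 12 probes, and for 37.7% of all items. Its slide held the other vehicle arrays too, and its share of probes well above background, 70.6%, lay between theirs. The cause of its higher values was not tested. Within the phenolphthalein group, replicate 2 was the highest for 6 of the 8 genes and replicate 3 the lowest for 6, against 30.1% and 28.4% of items. The SD within a group had a median of 0.31 over the members and 0.15 over all items.

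**Figure D2:**
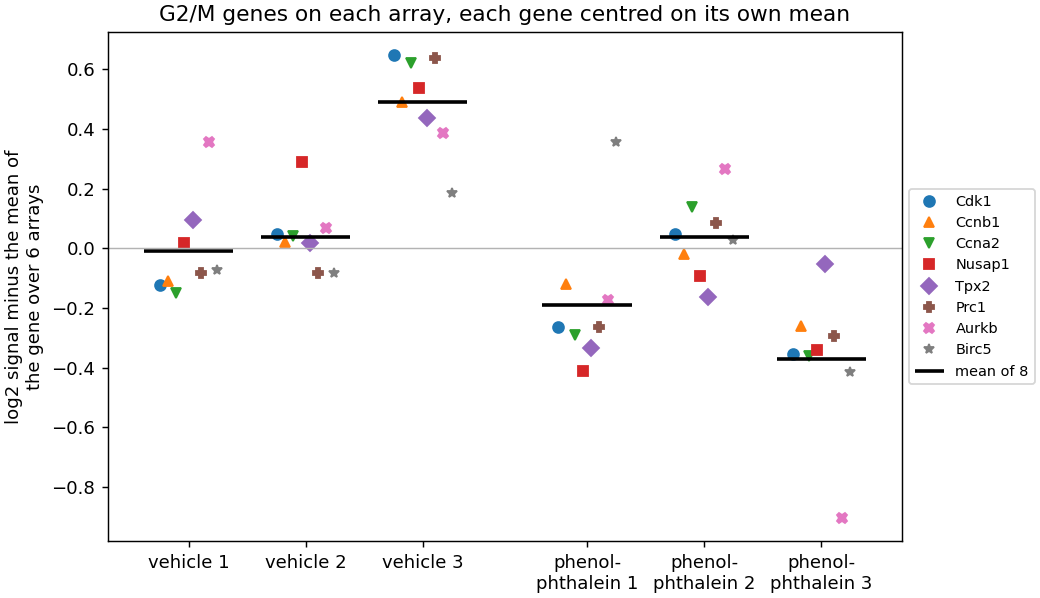
Log2 signal of each of the 8 genes minus its own mean over 6 arrays, by array, with the mean of the 8 as a black bar. Vehicle replicate 3 has the highest mean (0.49) and phenolphthalein replicate 3 the lowest (-0.37), while vehicle replicates 1 and 2 and phenolphthalein replicate 2 lie between -0.010 and 0.039.

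Between the groups, the 8 genes had a median difference of -0.35, from -0.56 for Nusap1 to -0.021 for Birc5, all below 0. Over all 34417 items the median was -0.016 and 54.2% of values were below 0. None of the 8 was called by limma at an adjusted p under 0.05, and neither was any other item, so that percent called was 0. At an unadjusted p under 0.05, 1 of the 8 was lower, Nusap1, where 4.96% of items were lower and 3.91% higher. The groups did not overlap for 2 of 8, Nusap1 and Tpx2, both lower, where 9.11% of items were lower and 6.59% higher without overlap. Since the genes were chosen with this contrast in view, these counts are given beside the background and nothing is read from them. For 6 of the 8, the range among the vehicle rats was wider than the group difference, as for 76.5% of the items with 6 values.

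Vehicle replicate 3 carried much of the difference. Without it the median over the 8 genes was -0.13, against -0.47 without vehicle replicate 1 and -0.44 without vehicle replicate 2. Cdk1 then stood at -0.15, Ccnb1 at -0.088, Ccna2 at -0.11 and Prc1 at -0.076, each nearer to 0 than with all rats. Nusap1 at -0.43, Aurkb at -0.48 and Tpx2 at -0.24 kept more of theirs, and Birc5 stood at 0.067. Leaving out phenolphthalein replicate 3 gave a median of -0.24, and leaving out phenolphthalein replicate 2, the highest of its group for most members, gave -0.47.

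**Figure D3:**
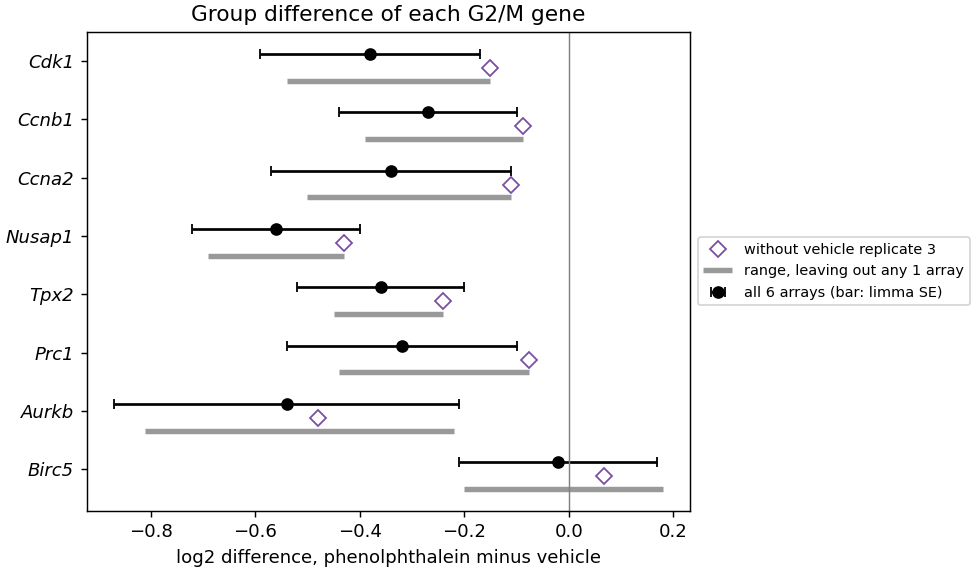
Difference between the groups for each G2/M gene in log2 units, with the limma SE as a bar, beside the value without vehicle replicate 3 and the range over leaving out any 1 array. Cdk1, Ccnb1, Ccna2 and Prc1 move close to 0 without vehicle replicate 3, whereas Nusap1 stays at -0.43.

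Other cell cycle genes, not all of which act in mitosis itself, were taken from 7 lists by role, of which 102 genes were tested. Of these, 75 had lower and 27 higher values, beside 54.2% and 45.8% of all items, with a median difference of -0.11. Limma called 0 in either direction at an adjusted p under 0.05 (smallest adjusted p = 0.458). At an unadjusted p under 0.05, 7 of the 102 were lower and 3 higher, beside 4.96% and 3.91% of all items. Vehicle replicate 3 was the highest vehicle array for 71 of the 102, beside 37.7% of all items, and without it their median was -0.045. They had medians of -0.034, -0.017 and 0.20 in the vehicle arrays and -0.088, 0.031 and -0.10 in the phenolphthalein arrays after centring, the same high and low arrays as the members. The lists were chosen with earlier results of these data known, so this too is a description.

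Kinetochore, centromere and passenger genes, which join chromosomes to the spindle, had a median of -0.24, with 16 of 19 lower. The median was -0.10 without vehicle replicate 3 and -0.081 with normexp. Incenp, the scaffold that holds Aurkb and Birc5 together, had the smallest p of the list and was on the higher side. It read -0.74, 0.0093 and -0.56 in vehicle and 0.11, 0.82 and 0.73 in phenolphthalein, with no overlap and a difference of 0.99 (SE 0.25, limma adjusted p = 0.458). The 4 measured passenger genes thus had differences of -0.54 for Aurkb, -0.021 for Birc5, 0.99 for Incenp and 0.20 (SE 0.19) for Cdca8 (borealin), which was named after its value was seen. Cenpt (-0.73, SE 0.21), Cenpl (-0.24, SE 0.078) and Ndc80, part of the microtubule-binding complex of the kinetochore (-0.46, SE 0.18), were lower with limma adjusted p of 0.477, 0.505 and 0.544. Mis18a, which helps to load the centromeric histone, was singled out after its values were seen. It was at 0.021 and -0.77 in vehicle replicates 1 and 3 but at -4.14 in vehicle replicate 2, level with the phenolphthalein values of -3.90, -3.93 and -4.18.

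Kinesins and spindle proteins had a median of -0.13, with 17 of 20 lower, and of -0.038 without vehicle replicate 3. Stmn1, which takes microtubules apart, had means of 3.97 ± 0.071 for the vehicle rats and 3.70 ± 0.18 for the phenolphthalein rats (SD, n = 3), without overlap and with all 3 probes lower. The mitotic kinesins Kif18b and Kif22 differed by -0.30 and -0.34, and Kif11, which pushes spindle poles apart, by 0.16 (SE 0.081). The adjusted p values by limma were 0.529, 0.624, 0.637 and 0.624 in that order. The other probe of Kif22 was at -0.1.

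Mitotic kinases and phosphatases had a median of -0.17, with 10 of 13 lower, and of -0.10 both without vehicle replicate 3 and with normexp. The checkpoint kinase Bub1 (-0.30, SE 0.14), Aurka, which Tpx2 activates (-0.23, SE 0.14), and Cdc25b, a phosphatase that activates Cdk1 (-0.20, SE 0.10), were on the lower side, and the kinase Cit, which acts in cytokinesis, was at 0.48 (SE 0.20). Among cyclins, CDK partners and mitotic exit genes the median was -0.063, with 12 of 20 lower, and -0.0091 without vehicle replicate 3. Espl1, the separase that cuts cohesin, differed by -0.48 (SE 0.22), the ubiquitin-conjugating enzyme Ube2t by -0.55 (SE 0.28), the anaphase activator Cdc20 by -0.17 (SE 0.10) and Cdk2 by 0.20 (SE 0.080). None of these 8 genes passed, with limma adjusted p between 0.548 and 0.662. The other probe of Ube2t was at -0.045, and the 3 probes of Cdc25b ran from -0.25 to -0.046.

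Of 4 cytokinesis genes, 3 were lower, with a median of -0.17. Racgap1, a part of the central spindle complex, was at -0.24, Cep55, which acts at abscission, at -0.23, Iqgap3 at -0.11 and the filament protein Septin9 at 0.028. Without vehicle replicate 3 their median was 0.023, and with normexp it was -0.066. Condensin, chromatin and cohesion genes had a median of -0.067, with 8 of 11 lower, among them the chromatin protein Hmgb2 (-0.38, SE 0.15), the lamin Lmnb1 (-0.16) and the methyltransferase Ezh2 (-0.26), while the condensin subunit Smc2, a dim probe, was at 0.53 (SE 0.35). In both lists 0 genes passed, and the smallest limma adjusted p were 0.705 and 0.541. The 3 probes of Hmgb2 ran from -0.38 to -0.06, and the other probe of Lmnb1 was on the higher side, at 0.085.

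The transcription factors of the programme had a median close to 0, at -0.0059, with 9 of 15 lower and differences from -0.40 to 0.53. Foxm1, which activates G2/M genes, was at -1.52, -1.39 and -1.20 in vehicle and -1.69, -1.34 and -1.70 in phenolphthalein, a difference of -0.21 (SE 0.14, limma adjusted p = 0.693). Its high and low arrays were those of the members. E2f1 differed by -0.40 (SE 0.13, limma adjusted p = 0.507), with 3 of 4 probes lower and the other at 1.18. E2f7, a repressor, was at -0.28 and Rbl1, the p107 protein of the DREAM complex, at 0.44 (SE 0.29). The probe of Rbl1 was dim. Its value in vehicle replicate 2, -5.77, lay below the dimmest signal called well above background on that array, -5.54.

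Inhibitors of the cell cycle had a median of 0.0049, with 7 of 15 lower. Gadd45a, a growth arrest gene, was the member of this list with the smallest p, at 2.93, 2.94 and 2.80 in vehicle and 3.12, 3.21 and 3.18 in phenolphthalein. All 3 phenolphthalein values exceeded all vehicle values, and the difference was 0.28 (SE 0.063, limma adjusted p = 0.434). Cdkn1c, which encodes p57, was at 0.25 with 1 of its 5 probes lower, and Tob1 was at 0.34. Cdkn1a, which encodes p21 and blocks cyclin-dependent kinases, was at -0.18 on its brightest probe, the only one of its 3 probes that was lower. The 3 probes ran from -0.18 to 1.25 and so disagreed on the direction.

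Genes of S phase and replication licensing had a median of -0.12, with 24 of 28 lower, and 0 called by limma (smallest adjusted p = 0.462). At an unadjusted p under 0.05, 4 of the 28 were lower and 1 higher, beside 4.96% and 3.91% of all items. Vehicle replicate 3 was the highest vehicle array for 13 of the 28, beside 37.7% of all items, and exceeded the others by a median of 0.037. That median was 0.46 for the G2/M members, which were selected on this contrast, and 0.22 for the 102 genes of the 7 lists. Without vehicle replicate 3 the S phase median was -0.10. The median of the members went from -0.35 to -0.13, and that of the 102 genes from -0.11 to -0.045. The difference between the lists was not tested. Mcm3, a subunit of the replicative helicase (-0.49, SE 0.13), Pola1, the primase-linked DNA polymerase (-0.40, SE 0.12), Gins1 (-0.38, SE 0.13) and Mcm10 (0.40, SE 0.16) had the smallest p, and without vehicle replicate 3 they stood at -0.51, -0.36, -0.38 and 0.43.

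**Figure D4:**
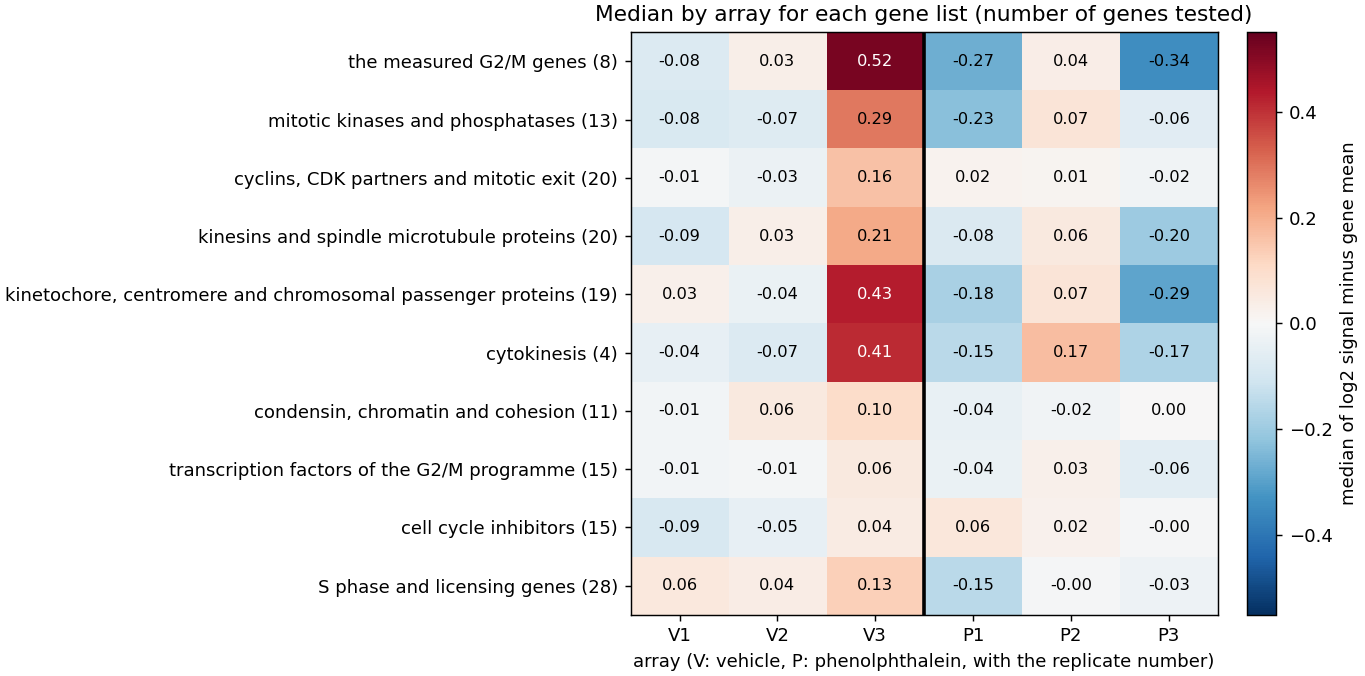
Median over the genes of each list of the log2 signal minus the gene's own mean over 6 arrays, by array, with the number of genes tested in brackets. The measured G2/M genes (0.52), kinetochore genes (0.43) and cytokinesis genes (0.41) have their highest median in vehicle replicate 3, and the transcription factors (0.055) and inhibitors stay near 0 there.

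The genes whose profile over the 6 arrays came closest to the mean profile of the members were found by the root mean square difference of centred log2 values, among 11496 other named genes well above background on all arrays. The closest were Kif20a, a kinesin of the central spindle, at 0.0531, Kif22, a chromosome-binding kinesin, at 0.0557, Lypd8l2 at 0.0652, Cym, which encodes chymosin, at 0.0712, and Spc25, a kinetochore protein, at 0.0823. The median over these named genes was 0.289. Over the members it was 0.123, but the mean profile is made from the members themselves. A smaller value for them was therefore built in, and nothing is read from it. Of the candidates, 94 came from the 7 lists by role, and 17 of these 94 were in the closest 100. That is 18.1% of the 94 and 17.0% of the 100, where the 100 are 0.87% of all candidates. All profiles come from the same 6 arrays, so the measure is a description of these rats.

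Markers of other cells were followed over the same arrays, since any dividing cell type could give G2/M transcripts. The summed level of 15 tested macrophage and monocyte markers, in units of the 75th percentile, was 140 to 176 in vehicle. It was 110 to 122 in phenolphthalein, with 12 of 15 lower. Cd68 was at -0.57, Aif1 at -0.50 and Csf1r at -0.16, and the 15 differences ran from -0.65 to 1.1. The summed level of 14 T and NK cell markers was 4.29 to 5.74 in vehicle and 2.85 to 3.58 in phenolphthalein. Of these markers 14 of 14 were lower, with Cd3d at -0.40, Cd3e at -0.61 and Cd3g at -0.57. Both sums were lower in every phenolphthalein rat, as were Nusap1 and Tpx2. Vehicle replicate 3, the highest for the members, had the lowest sum of the vehicle group in both, but a sum is weighted to bright markers. By the median of centred values, the macrophage and monocyte markers were at -0.019, 0.35 and 0.15 in vehicle, with replicate 1 the lowest. The T and NK cell markers were at 0.16, 0.61 and 0.041, with replicate 3 the lowest. The sum of 4 B and plasma cell markers was 1.12 to 1.88 in vehicle and 1.03 to 1.87 in phenolphthalein, with vehicle replicate 3 at 1.12.

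The summed levels of erythroid, neutrophil, podocyte and distal tubule markers were highest among the vehicle arrays in replicate 3, as the members were. It was the highest vehicle array for 4 of 5 erythroid, 3 of 4 neutrophil, 4 of 5 podocyte and 5 of 8 distal markers. The summed level of 5 erythroid markers was 466, 501 and 576 in vehicle and 467, 484 and 449 in phenolphthalein, so that the highest and the lowest array were those of the members. This sum is mostly that of the bright haemoglobin genes Hba-a1 (8.19 to 8.54) and Hbb (7.25 to 7.65). By the median of centred values, the 5 markers were at -0.13, 0.056 and 0.24 in vehicle and -0.11, -0.051 and -0.17 in phenolphthalein. Their 5 differences were all below 0, with a median of -0.15, and Alas2, the enzyme of haem synthesis in red cell precursors, was at 0.52, 0.72 and 0.99 in vehicle and 0.37, 0.53 and 0.38 in phenolphthalein. The sum of 4 neutrophil markers was 0.307, 0.373 and 0.555 in vehicle and 0.318, 0.525 and 0.681 in phenolphthalein, where phenolphthalein replicate 3, the lowest array for 6 members, was the highest. The podocyte sum was 26.3, 29.4 and 33.3 in vehicle and 31.2, 33.9 and 35.6 in phenolphthalein, and the distal sum was 630, 594 and 688 in vehicle and 600, 632 and 633 in phenolphthalein. The summed levels of 8 endothelial, 10 proximal tubule, 8 distal, 5 podocyte and 10 injury and repair markers overlapped between the groups. Of the marker genes named first for each cell type, Cd79a, Mpo and Slc12a1 had no matched probe, and each of the others passed the filter on dim signals. The part of any of these cells in the pattern of the G2/M genes was not tested.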

How the data were processed

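RNA of renal cortex was measured on Agilent single-colour arrays in 3 vehicle and 3 phenolphthalein rats. The deposited intensity values were background-subtracted and detrended within each array by Agilent Feature Extraction 10.7.1.1, per the file headers (10.7 in the submitters' processing notes), with no normalization between arrays. The deposited value table holds a ratio on a linear scale that equalled, for each column, the processed intensity over the array's 75th percentile of another replicate of the same group. Scanner files were used under their own names, and the table as an alternative. The number of arrays limits the precision.

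The value analysed was log2 of the processed intensity minus log2 of the array's 75th percentile. Outlier spots were set to missing. Probes were named through unversioned RefSeq accessions with the GRCr8 gene table (27460 of 61657 probes). Items were kept if well above background on at least 3 arrays, and the brightest probe stood for a gene. The contrast was fitted by limma 3.58.1 under R 4.3.3 across all genes and unnamed probes (intensity trend, two-sided, Benjamini-Hochberg, threshold 0.05), and the fit was tested on simulated data. SEs of genes with a single value come from this fit, and those of probes from a fit in which every probe is an item.

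The members and the gene lists were chosen with earlier results of these data known. Named genes are the members, the 4 genes with the smallest p of each list of other cell cycle genes, the 5 closest profiles and the first 3 markers of each cell type. The rule for printing promoters took the first 4 members with both motifs; after the files were seen it was narrowed to members with a measured level, so that Birc5 and Prc1 stand in place of Top2a and Mki67. Since the files hold no mean spot signal, normexp (offset 50) used the median spot signal. The other alternatives were quantile and median scaling, the value table, other filters and probe rules, outlier spots kept, no intensity trend, the slide or the replicate number as a block, and leaving out each array. All columns were used (0 left out).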

Additional observations from a re-analysis of the deposited data

How the results depend on the processing

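Limma called 0 items higher and 0 lower in every alternative fit to the 6 arrays, the replicate block included (0 and 0), and 0 to 1 in each direction when 1 array was left out. The median difference of the 8 members, -0.35, was -0.24 with normexp and between -0.37 and -0.34 under the other alternatives with all arrays, -0.35 with the replicate block among them. It lay between -0.47 and -0.13 when 1 array was left out, and stayed below 0 throughout. Same-numbered rats showed little common deviation over the items (correlations -0.00606, -0.0150 and 0.025). With 3 rats per group and uncertain numbers, these values cannot exclude that same-numbered rats shared a step. Of 144 values of single members under alternatives, 143 moved by less than the SD between rats and 2 changed sign, both of Birc5. The other, Aurkb with normexp (-0.095), moved by more, and the cause was not tested. Of 162 list medians, 160 moved by less than the SD between arrays and 10 changed sign, 5 for the inhibitors, 4 for the transcription factors and 1 for cytokinesis (0.023 without vehicle replicate 3). Leaving out 1 array gave medians between -0.12 and -0.052 for condensin, chromatin and cohesion genes, and between -0.049 and 0.060 for cell cycle inhibitors. With slide as a random block the members' median was -0.36. Precision is limited by 3 rats per group, on slides that do not mix the groups.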
